A study of Homo sapiens with 12 samples.

Results

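The 10 genes described here are contractile and cytoskeletal genes or secreted matricellular genes that are widely used as readouts of the transcription factors SRF and YAP: *TAGLN*, *ACTA2*, *ACTC1*, *CNN1*, *MYL9*, *TPM1*, *TPM2*, *PDLIM7*, *CYR61* (now *CCN1*) and *CTGF* (now *CCN2*). They were chosen by symbol, matched to Ensembl identifiers through GENCODE release 29, and all 10 were found among the 25141 genes counted. All 10 also passed the filter on low counts, which kept 12542 genes. RNA‐seq was made from HOS, a human osteosarcoma cell line, in 4 groups of 3 libraries. The question of the study was how the adaptor protein CIN85, encoded by *SH3KBP1*, acts on these cells.

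The upCIN85 cells were HOS transfected with the pRc/CMV2-Rukl plasmid for full‐length CIN85 and selected with geneticin, and the Mock cells received the empty vector and the same selection. Each of these was 1 resistant pool, so CIN85 itself and the selection of a pool cannot be told apart in this comparison. For the knockdown, several siRNAs to CIN85 were mixed (siCIN85), and a non‐targeting siRNA served as the control (siNeg). The study's methods call replicates biological in general, but the labels and the RNA‐seq methods do not say how the 3 libraries of a group were grown. P‐values thus measure the spread between these libraries, part of which may be technical.

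Total counts lay between 5334731 and 6049458 in the vector groups and between 3540641 and 4174860 in the siRNA groups. *SH3KBP1* fell in siCIN85 (log2FC −3.51, adjusted P = 5.09e-08 by edgeR's quasi‐likelihood test), whereas its log2FC in upCIN85 was 0.07 (adjusted P = 0.887). The libraries read the 3′ ends of transcripts, and the sources used here do not say whether the plasmid carries the 3′ end of the gene, so the count does not check the overexpression. The study examined CIN85 protein in the resistant pool by western blotting. Of 7 osteoblast and mesenchymal markers, 6 or 7 had over 3 counts in a library of each group, with sums of 1189 to 2567 CPM (counts scaled to library size). Of 7 smooth muscle markers counted, *SYNPO2*, *CNN1*, *LMOD1* and *SMTN* had over 3 counts in a library of each group. The smooth muscle transcription cofactor gene *MYOCD* was at 0 in all Mock and upCIN85 libraries and had up to 4 counts in siNeg. *DES*, the intermediate filament gene of muscle, was at 0 in all Mock, siNeg and siCIN85 libraries. Blood cell markers summed to at most 2.31 CPM and endothelial markers to at most 6.80.

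SRF binds a sequence called the CArG box and is switched on by the MRTF cofactors, which enter the nucleus when actin is assembled into filaments and free monomers become scarce. YAP and its relative TAZ enter the nucleus in spread cells under tension and bind DNA through the TEAD factors. Both routes respond to the RhoA and ROCK pathway, and in osteoblast‐lineage and other mesenchymal cells they control genes for the contractile apparatus and for secreted matrix proteins. Binding of these factors was not measured in these libraries.

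The sequence before the start sites of *CTGF*, *ACTC1* and *ACTA2* is shown since these windows hold the letters that SRF or TEAD factors are known to bind. RefSeq promoter windows on GRCh38.p14, from 250 bases before to 50 bases after a start site, were found for 7 of the 10 genes, with 11 windows. Capitals mark GGAATG, searched on both strands, or a CArG box, which is CC and GG around 6 bases that are all A or T, or the same with 1 G or C among the 6. No 2 marked matches overlap. The *CTGF* window lies at chr6:131951453-131951552, *ACTC1* at chr15:34795640-34795794 and *ACTA2* at chr10:88952829-88952963, all on the minus strand and upstream of the start site, and each is printed 5′ to 3′.
CTGF: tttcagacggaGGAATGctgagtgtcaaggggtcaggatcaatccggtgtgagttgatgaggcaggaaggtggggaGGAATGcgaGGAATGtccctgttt
ACTC1: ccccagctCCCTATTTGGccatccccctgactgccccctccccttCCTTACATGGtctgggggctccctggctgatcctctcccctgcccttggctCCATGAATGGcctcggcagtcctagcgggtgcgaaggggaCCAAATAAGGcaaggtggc
ACTA2: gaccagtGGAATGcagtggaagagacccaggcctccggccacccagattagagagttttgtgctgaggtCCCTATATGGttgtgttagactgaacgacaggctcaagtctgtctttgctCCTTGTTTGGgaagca

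*CTGF* had GGAATG 3 times, starting 169, 104 and 95 bases before the start site. At least 3 matches were found in 0.128% of 35116 RefSeq promoters and at least 1 in 14.0%. *ACTC1* had an exact CArG box 109 bases before the start, which 1.29% of promoters hold, and 3 boxes with 1 G or C further upstream. *ACTA2* had 2 boxes with 1 G or C, a form found in 6.94% of promoters, and GGAATG once. A second window of *ACTA2*, 2 further windows of *ACTC1* and the windows of *CNN1*, *TPM1*, *TPM2* and *PDLIM7* held none of these letters, except GGAATG once in an *ACTC1* window. These matches are descriptions of sequence, not of binding.

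Values per library are CPM after TMM scaling, given for replicates 1, 2 and 3 in that order. Reads came from 3′ ends, so CPM is not divided by transcript length, and levels are compared between groups and not between genes. A change is given as log2FC with its standard error (SE), and a call is an adjusted P below 0.05 over all 12542 genes.

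In upCIN85 versus Mock, *CNN1* rose, and it was the only one of the 10 genes to pass the test. *ACTC1* also lay higher and *TAGLN*, *PDLIM7*, *MYL9* and *CYR61* lower in all upCIN85 libraries than in all Mock libraries, with adjusted P between 0.0559 and 0.406. The 10 genes thus did not move in 1 direction: 4 had a positive and 6 a negative log2FC, with a median of −0.27 against 0.01 over all tested genes. Over all 12542 genes, 6408 had a positive and 6134 a negative log2FC. Of all genes tested, 0.439% were called higher and 0.789% lower in this comparison. A block for the replicate number in the knockdown (the knockdown block) leaves the upCIN85 and Mock libraries unblocked but changes the spread that all groups share. With it, 4 of the 10 genes passed in upCIN85: *CNN1* (adjusted P = 0.00186 by edgeR) and *ACTC1* (0.0185) higher, and *TAGLN* (0.00123) and *PDLIM7* (0.0149) lower, against 1.79% of all genes higher and 2.56% lower. Libraries did not overlap, being higher in upCIN85, for 2 of the 10 genes and for 9.74% of all tested genes, and being lower for 4 of the 10 and for 11.0% of all. The epithelial genes *EPCAM* and *CDH1* summed to 50.6 to 56.1 CPM in Mock and 69.8 to 82.6 CPM in upCIN85, and their part in these results was not tested.

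*CNN1* encodes calponin 1, an actin‐binding protein of smooth muscle (ENSG00000130176, chr19:11538717-11550323, plus strand). Its CPM was 35.4, 59.2 and 37.4 in Mock and 113, 79.4 and 189 in upCIN85. All upCIN85 libraries lay above all Mock libraries, and the upCIN85 libraries were spread more widely, with replicate 2 lowest and replicate 3 highest. The log2FC was 1.53 (SE 0.26, 95% confidence interval 0.97 to 2.08), a 2.88‐fold rise, with an adjusted P of 0.00895 by edgeR. Without Mock replicate 3 the adjusted P was 0.071 and without upCIN85 replicate 3 it was 0.0634, with log2FC of 1.42 and 1.12. The other 6 smooth muscle markers counted here summed to 7.52 to 12.4 CPM in Mock and 10.4 to 13.6 CPM in upCIN85. *MYH11*, also sought as a marker, was not found among the genes counted. In bulk RNA, more cells that express a gene and more RNA per cell cannot be told apart.

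*ACTC1*, the gene of cardiac muscle α‐actin (ENSG00000159251, chr15:34788095-34795726, minus strand), had a low level of 6.58, 9.34 and 11.0 CPM in Mock and 14.0, 16.5 and 20.7 in upCIN85. Those are 35 to 63 counts in Mock and 80 to 122 in upCIN85. Every upCIN85 library was above every Mock library, and the order of the 3 replicates was the same in both groups. The log2FC was 0.92 (SE 0.23) with an adjusted P of 0.0559, just outside the threshold, and of 0.0467 by edgeR without siNeg replicate 3, a library outside this comparison. Leaving out 1 Mock or upCIN85 library gave *ACTC1* an adjusted P of 0.0669 to 0.260 by edgeR.

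*ACTA2*, the gene of smooth muscle α‐actin (ENSG00000107796, chr10:88935074-88991339, minus strand), had the widest relative spread of the 10 in upCIN85. Its CPM was 15.8, 18.0 and 13.2 in Mock and 24.3, 7.68 and 43.0 in upCIN85. Replicate 2 of upCIN85 was below all Mock libraries and the other two were above them, so the groups overlapped, and the log2FC of 0.67 (SE 0.42, adjusted P = 0.489) did not pass. Without upCIN85 replicate 2 the log2FC was 1.10 (adjusted P = 0.0775), and without upCIN85 replicate 3 it was 0.02. *CNN1* and *MYL9* had the same order of the upCIN85 libraries, lowest in replicate 2 and highest in replicate 3. Among the striated muscle markers, the troponin genes *TNNT2* (17.5, 2.61 and 31.3 CPM) and *TNNC1* (3.15, 0.163 and 5.61 CPM, with 1 count in replicate 2) did too. *TNNI3* (0.874, 0.980 and 1.70 CPM) and *MYOD1* (0.525, 0.327 and 0.340 CPM) had other orders. *ACTA1*, *MYH6* and *TTN* were at 1 count or fewer in each upCIN85 library. The 7 striated muscle markers counted summed to 4.25 to 39.1 CPM in upCIN85 and 6.49 to 10.9 CPM in Mock, and their part in these results was not tested.

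**Figure D1:**
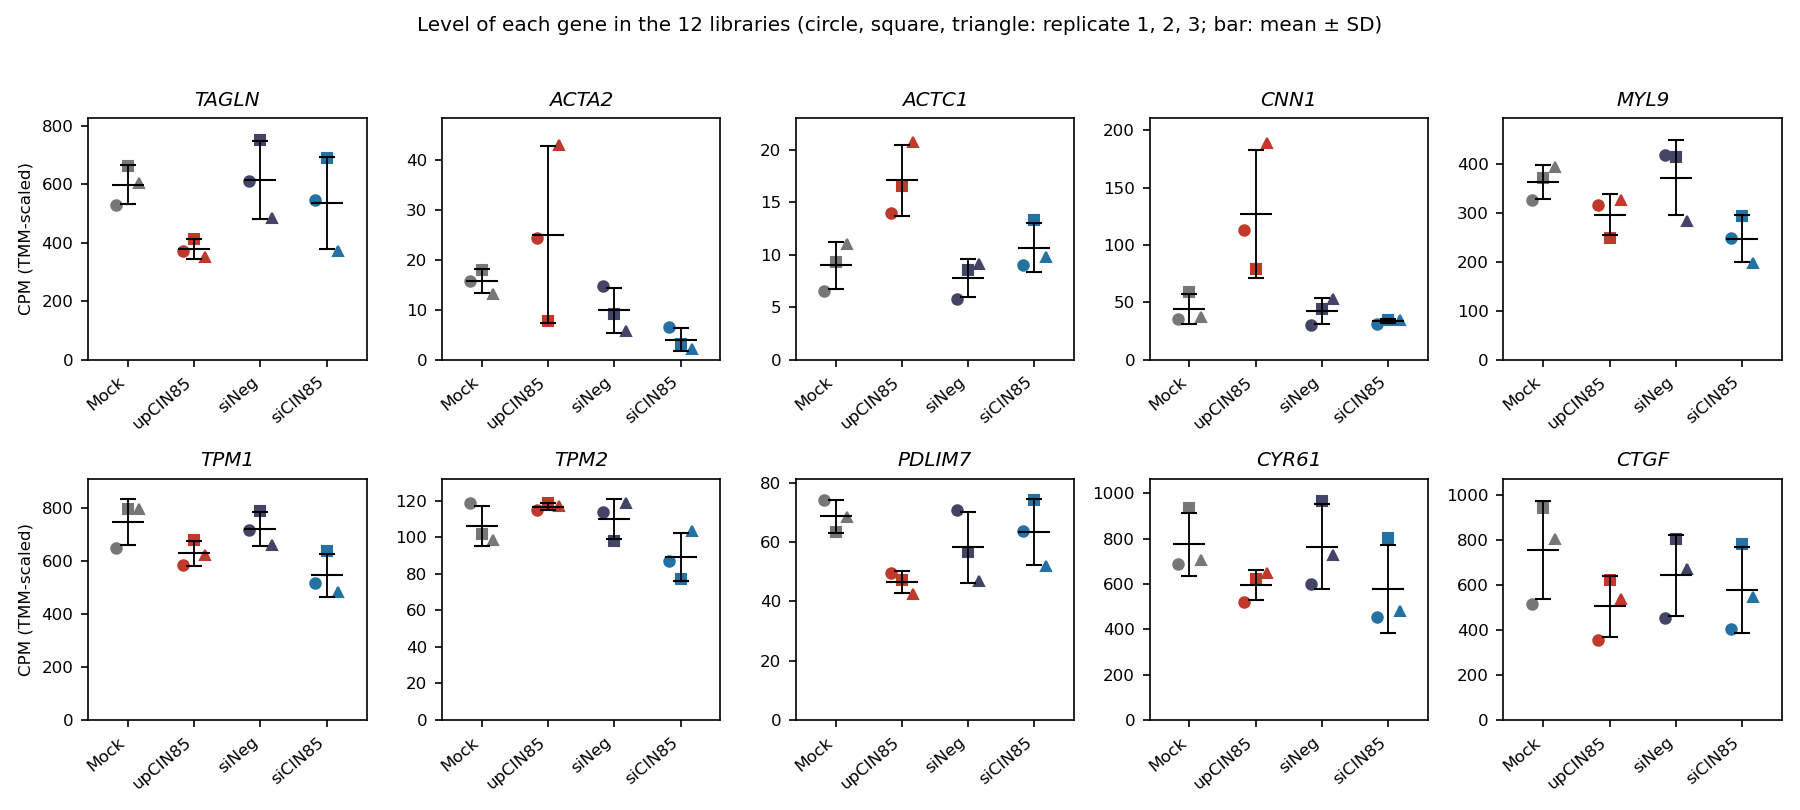
CPM of each of the 10 genes on axes that start at 0, with 1 point per library (circle, square and triangle for replicates 1, 2 and 3) and a bar for the mean ± SD of the 3 libraries of each group. *CNN1* is above all other groups in upCIN85, *ACTA2* spreads from 7.68 to 43.0 CPM in upCIN85, and replicate 2 is the highest point of *TAGLN* and *CTGF* in every group.

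*TAGLN* encodes transgelin, an actin‐crosslinking protein of smooth muscle and fibroblasts (ENSG00000149591, chr11:117199321-117204782, plus strand). Its CPM was 529.75, 665 and 604 in Mock and 372, 415 and 350.2 in upCIN85. The highest upCIN85 library was below the lowest Mock library, opposite in sign to *CNN1* although both are smooth muscle genes. The log2FC was −0.66 (SE 0.18, 95% confidence interval −1.04 to −0.28), and the adjusted P was 0.0754 by edgeR and 0.0226 by DESeq2, the tool of the study. It lay between 0.0339 and 0.0484 by edgeR when siNeg replicate 3 or siCIN85 replicate 2 or 3, all outside this comparison, was left out. Leaving out 1 Mock or upCIN85 library gave *TAGLN* an adjusted P of 0.0793 to 0.292 by edgeR. *PCSK7* has an exon on the other strand over the last exon of *TAGLN*, and the strand setting of the counting is not given in the sources used here. *PCSK7* had 1721 counts over the 12 libraries and *TAGLN* 30343.

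*PDLIM7* encodes a PDZ and LIM domain protein that links actin filaments to signalling proteins and is linked to bone formation (ENSG00000196923, chr5:177483394-177497606, minus strand). Its CPM was 74.3, 63.3 and 68.4 in Mock and 49.7, 47.2 and 42.3 in upCIN85. The groups were apart by more than either spread, with a log2FC of −0.56 (SE 0.15) and an adjusted P of 0.0755 by edgeR and 0.0307 by DESeq2. By DESeq2 on all 12 libraries, 4 of the 10 genes were called: *CNN1* and *ACTC1* (adjusted P = 0.0346) higher, and *TAGLN* and *PDLIM7* lower. The same tool called 0.859% of genes higher and 1.64% lower.

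The other cytoskeletal genes moved less. *MYL9*, the regulatory light chain of smooth muscle and non‐muscle myosin (ENSG00000101335, chr20:36541484-36551447, plus strand), had 327, 371 and 395 CPM in Mock and 316, 248 and 326 in upCIN85. The groups were separated only by the gap between 326.6 and 325.9 CPM, and the log2FC was −0.30 (SE 0.16, adjusted P = 0.406). *TPM1*, a tropomyosin gene (ENSG00000140416, chr15:63042632-63071915, plus strand), had 646, 794 and 795 CPM in Mock and 582, 678 and 623 in upCIN85, which overlap (log2FC −0.25, SE 0.12, adjusted P = 0.349). *TPM2*, the β‐tropomyosin gene (ENSG00000198467, chr9:35681992-35690121, minus strand), had 119, 102 and 98.7 CPM in Mock and 115, 119 and 117 in upCIN85. For *TPM2* the 95% confidence interval of the log2FC was −0.12 to 0.39 (estimate 0.13, adjusted P = 0.653).

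*CYR61* and *CTGF* encode secreted matricellular proteins that are among the best known YAP and TEAD targets, and *CYR61* is an SRF target too. *CYR61* (ENSG00000142871, chr1:85580761-85583962, plus strand) had 687, 935 and 704 CPM in Mock and 519, 619.6 and 648 in upCIN85. The groups did not overlap, and the log2FC was −0.38 (SE 0.20, adjusted P = 0.396). *CTGF* (ENSG00000118523, chr6:131948176-131951373, minus strand) had 516, 940.5 and 803 CPM in Mock and 353, 621 and 536 in upCIN85. Its groups overlapped, with a log2FC of −0.58 (SE 0.26, adjusted P = 0.304).

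The overlap of *CTGF* came with the spread inside each group: in both groups replicate 1 was the lowest and replicate 2 the highest. Between libraries of the same number, the log2 ratio of upCIN85 to Mock was −0.55, −0.60 and −0.58 for replicates 1, 2 and 3, with an SD of 0.026. The corresponding ratios of *CYR61* were −0.40, −0.59 and −0.12, and those of *CNN1* were 1.66, 0.42 and 2.32. No label ties equal numbers of Mock and upCIN85 together, so these ratios are given as a description. Across all genes, equal numbers of these groups also correlated (r = 0.326, 0.227 and 0.0989). With a block for the replicate number in both experiments, *CTGF* (adjusted P = 0.00011 by edgeR) and *CYR61* (0.0139) passed as lower in upCIN85. That block called 1035 of all 12542 tested genes in this comparison.

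**Figure D2:**
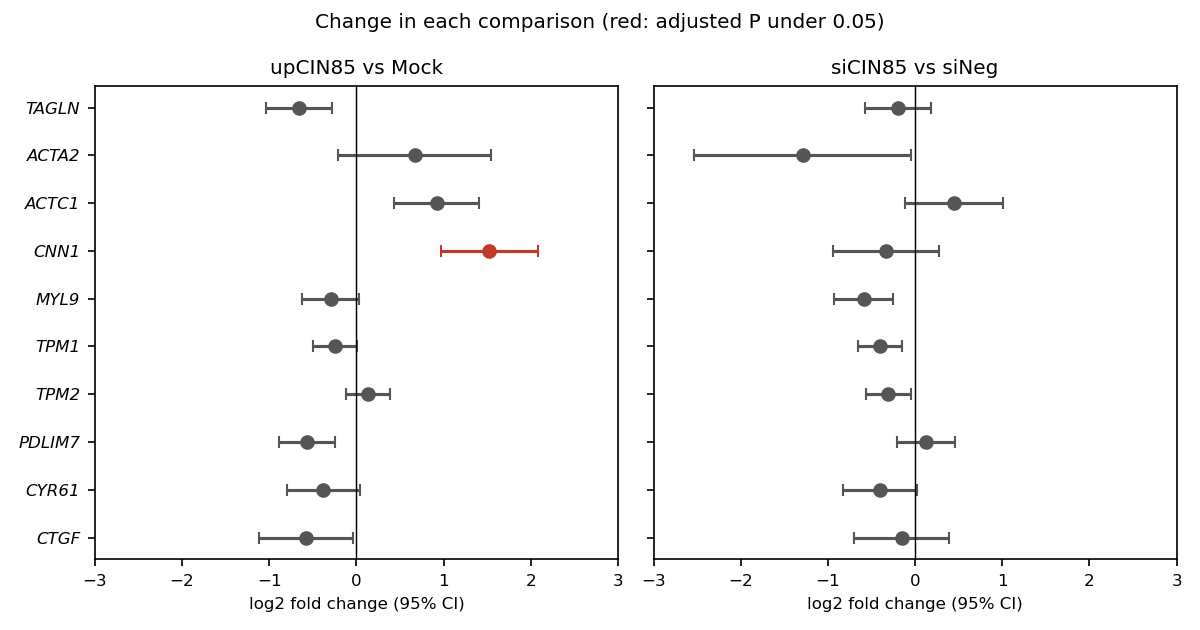
log2FC of the 10 genes (points) with 95% confidence intervals (bars) from edgeR, in upCIN85 versus Mock on the left and siCIN85 versus siNeg on the right. *CNN1* in upCIN85, at 1.53, is the only red point, which marks an adjusted P below 0.05. *CTGF*, *TAGLN*, *MYL9*, *TPM1* and *CYR61* lie left of 0 in both panels.

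In siCIN85 versus siNeg none of the 10 genes passed the test by edgeR, and 4 of the 10, all lower, had an unadjusted P below 0.05. At that unadjusted P, 1022 of all 12542 tested genes were lower and 947 higher. Of the 10, 8 had a negative log2FC, as had 6374 of all tested genes. The median was −0.32 for the 10 against −0.01 over all tested genes. Of all genes tested, 0.59% were called higher and 0.454% lower. No label pairs the siNeg and siCIN85 libraries, but equal numbers deviated together from their group means across all genes. The fit used for calls did not pair them, and a further fit treated them as pairs. With a block for the replicate number in siNeg and siCIN85, *MYL9* and *TPM1* fell, and 1.53% of all genes were called higher and 1.89% lower. The 7 osteoblast and mesenchymal markers summed to 1719 to 2087 CPM in siNeg and 1189 to 1603 CPM in siCIN85, and their part in these results was not tested.

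*MYL9* had 419, 414 and 284 CPM in siNeg and 249, 295 and 198 in siCIN85. Replicate 3 of siNeg lay below replicate 2 of siCIN85, so the ranges overlapped, although each siCIN85 library was below the siNeg library of its number. The log2FC was −0.59 (SE 0.16) with an adjusted P of 0.0811 by edgeR, 0.00838 with the block and 0.0226 by DESeq2. By DESeq2, *MYL9* was the only one of the 10 called in this comparison, where 1.22% of genes were called higher and 1.49% lower. Without siNeg replicate 3 its log2FC was −0.76 (adjusted P = 0.0235 by edgeR), and without siCIN85 replicate 2 it was −0.75 (adjusted P = 0.0276). Leaving out any other siNeg or siCIN85 library gave *MYL9* an adjusted P of 0.229 to 0.269 by edgeR.

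*TPM1* had 715, 787 and 659 CPM in siNeg and 517, 637 and 481 in siCIN85. It was the only one of the 10 whose siCIN85 libraries all lay below all siNeg libraries, which 10.2% of tested genes did, and none of the 10 lay wholly above, which 9.91% did. The log2FC was −0.40 (SE 0.12) with an adjusted P of 0.110 by edgeR and 0.0296 with the block. Without siCIN85 replicate 2 the adjusted P was 0.0254, with a log2FC of −0.54. Leaving out any other siNeg or siCIN85 library gave *TPM1* an adjusted P of 0.0819 to 0.345 by edgeR.

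*TPM2* had 114, 98.0 and 119 CPM in siNeg and 87.1, 76.9 and 103 in siCIN85 (log2FC −0.31, SE 0.12, adjusted P = 0.238). The highest siCIN85 library was above the lowest siNeg library, and each siCIN85 library was below the one of its number. *ACTA2* had 14.7, 9.04 and 5.73 CPM in siNeg and 6.55, 3.18 and 2.11 in siCIN85, which are 59, 37 and 22 counts against 27, 11 and 8. Its log2FC of −1.29 (SE 0.59, 95% confidence interval −2.53 to −0.05, adjusted P = 0.300) was the most negative of the 10, and the groups overlapped because siCIN85 replicate 1 was above siNeg replicate 3. Between equal numbers, however, the log2 ratios of *ACTA2* were −1.12, −1.40 and −1.28.

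*CYR61* had 599, 966 and 729 CPM in siNeg and 454, 803 and 480.3 in siCIN85 (log2FC −0.40, SE 0.20, adjusted P = 0.337, and 0.0605 with the block). Leaving out siCIN85 replicate 2 brought *CYR61* past the threshold (log2FC −0.72, adjusted P = 0.0370 by edgeR), and leaving out siNeg replicate 2 gave a log2FC of −0.21. *CTGF* had 450.1, 804 and 670.1 CPM in siNeg and 402, 783 and 545 in siCIN85 (log2FC −0.15, SE 0.26, adjusted P = 0.814). Both were lower in siCIN85 in each of the 3 same‐numbered pairs, and replicate 2 was the highest in both groups. *TAGLN* had 611, 752 and 485 CPM in siNeg and 547, 689 and 374 in siCIN85 (log2FC −0.20, SE 0.18, adjusted P = 0.625), with replicate 2 highest and replicate 3 lowest in both groups. Leaving out siCIN85 replicate 2 gave *TAGLN* a log2FC of −0.43, and leaving out siCIN85 replicate 3 gave −0.0037.

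*CNN1* had 30.0, 43.7 and 52.9 CPM in siNeg and 31.3, 34.4 and 34.6 in siCIN85 (log2FC −0.34, SE 0.29, adjusted P = 0.604). The groups overlapped, and siCIN85 had the narrower spread. *ACTC1* had 5.75, 8.55 and 9.11 CPM in siNeg and 8.98, 13.3 and 9.77 in siCIN85 (log2FC 0.44, SE 0.27, adjusted P = 0.430). *PDLIM7* had 71.0, 56.7 and 46.9 CPM in siNeg and 63.6, 74.3 and 52.0 in siCIN85 (log2FC 0.12, SE 0.16, adjusted P = 0.756), with replicate 1 lower and replicates 2 and 3 higher in siCIN85.

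**Figure D3:**
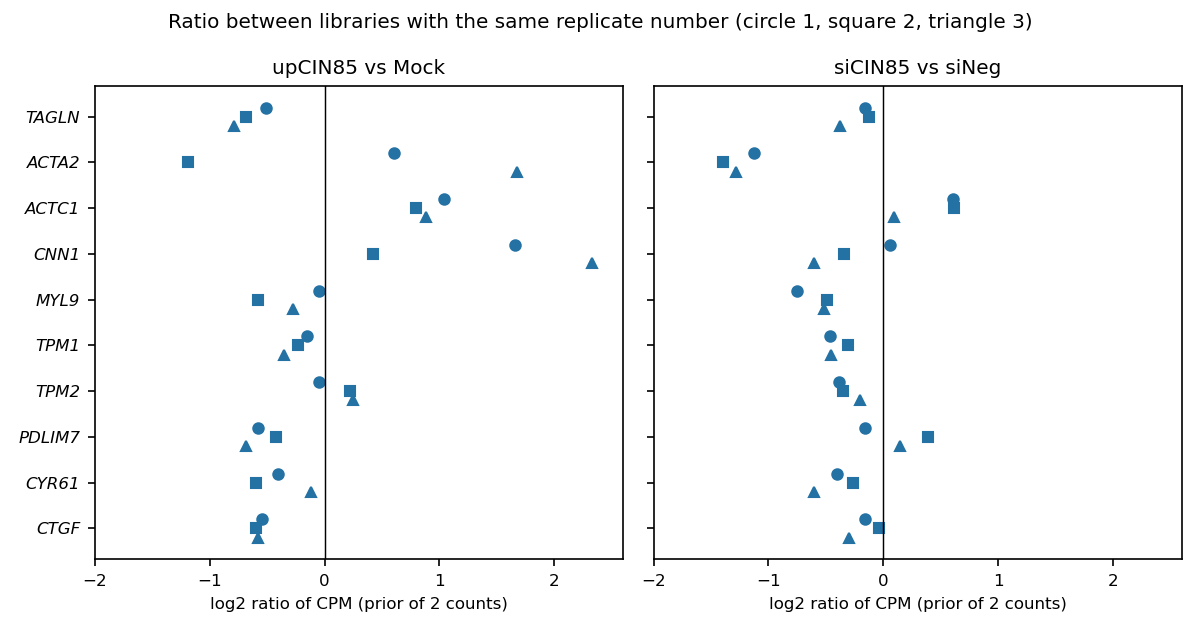
log2 ratio of CPM between the 2 libraries that carry the same replicate number (circle, square and triangle for 1, 2 and 3), for upCIN85 over Mock on the left and siCIN85 over siNeg on the right. On the right, all 3 ratios of *ACTA2* lie between −1.40 and −1.12, and on the left those of *CTGF* lie between −0.60 and −0.55 and those of *CNN1* between 0.42 and 2.32.

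Over the 3 same‐numbered pairs of the knockdown, 7 of the 10 genes were lower in siCIN85 in every pair: *TAGLN*, *ACTA2*, *MYL9*, *TPM1*, *TPM2*, *CYR61* and *CTGF*. Of all tested genes, 22.8% were. *ACTC1* was higher in every pair, as were 22.4% of all genes, and *CNN1* and *PDLIM7* were mixed. The 10 genes were chosen with results of these libraries known, so their count is a description and was given no test.

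The change of *CNN1* differed between the overexpression and the knockdown: the upCIN85 log2FC minus the siCIN85 log2FC was 1.86 (SE 0.39, adjusted P = 0.0321 by edgeR). It was the only one of the 10 called for this difference, which 0.287% of all genes passed as higher and 0.686% as lower. The adjusted P exceeded the threshold without any 1 of 7 libraries, with values from 0.0527 to 0.0907 and differences from 1.46 to 1.90: Mock replicate 1 or 3, upCIN85 replicate 3, siNeg replicate 2 or 3, and siCIN85 replicate 1 or 2. *ACTA2* had a difference of 1.96 (SE 0.72, adjusted P = 0.214), which passed without upCIN85 replicate 2 (2.39, adjusted P = 0.0202 by edgeR), and *PDLIM7* had a difference of −0.68 (SE 0.22, adjusted P = 0.145, and 0.0462 with the block in the knockdown). For the other 7 genes the adjusted P lay between 0.240 and 0.983. Overexpression and knockdown aim at opposite changes of CIN85, and this contrast tests only whether both log2FC are equal.

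Between the control groups, siNeg versus Mock, none of the 10 was called by edgeR or by DESeq2. In the edgeR fit used for calls and by DESeq2 on all 12 libraries, none had an unadjusted P below 0.05. By that edgeR fit the log2FC ranged from −0.67 for *ACTA2* to 0.05 for *TPM2*, with adjusted P of 0.561 to 0.979. On the 6 libraries of the comparison, *ACTA2* had an unadjusted P of 0.0288 by edgeR and 0.0303 by DESeq2 (adjusted P = 0.289 and 0.370). Of all genes tested, 0.415% were called higher and 0.112% lower in siNeg.

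By group means, upCIN85 was the highest of the 4 groups for *CNN1* (127 ± 56.0 CPM, SD, n = 3), *ACTC1* (17.1 ± 3.41), *ACTA2* (25.0 ± 17.7) and *TPM2* (117 ± 1.97), and the lowest for *TAGLN* (379 ± 32.8), *PDLIM7* (46.4 ± 3.73) and *CTGF* (503 ± 137). The siCIN85 mean was the lowest for *MYL9* (247 ± 48.2), *TPM1* (545 ± 82.0), *TPM2* (89.1 ± 13.3), *CYR61* (579 ± 195), *ACTA2* (3.95 ± 2.32) and *CNN1* (33.4 ± 1.85). Between groups next to each other in the order of means, libraries were apart only for *CNN1* (upCIN85 over Mock), *ACTC1* (upCIN85 over siCIN85) and *MYL9* (Mock over upCIN85). All other neighbours overlapped. For *ACTC1* the order was upCIN85, siCIN85, Mock and siNeg, so both groups with altered CIN85 had means above their controls.

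Co‐variation between replicates was described by the deviation of each library's log2 CPM from the mean of its group. Deviations within a group sum to 0, libraries share depth and handling, and the correlations are over 12 libraries, so they are given without P. *CTGF* had nearly the same pattern in all 4 groups: replicate 1 deviated by −0.50, −0.47, −0.47 and −0.47 in Mock, upCIN85, siNeg and siCIN85. Its replicate 2 deviated by 0.37, 0.34, 0.37 and 0.49 in the same order. These deviations are about as large as the change of *CTGF* between upCIN85 and Mock.

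Replicate 2 was the highest library in at least 3 of the 4 groups for 4 of the 10 genes (*TAGLN*, *TPM1*, *CYR61* and *CTGF*) and for 12.6% of all tested genes, and in all 4 groups for *TAGLN* and *CTGF* and for 2.09% of all. Replicate 2 was the deepest library in Mock, upCIN85 and siNeg and the shallowest in siCIN85. In the lists of related genes described further on, replicate 2 was the highest in at least 3 groups for 4 of 21 other YAP and TEAD target genes, 6 of 30 actin and contractile apparatus genes, 2 of 15 RhoA, ROCK and LIM kinase genes and 2 of 19 YAP, TAZ and Hippo pathway genes. It was so for none of 9 SRF and MRTF regulators, 12 TGF‐β pathway genes and 1 CCN gene. *ANKRD1*, a cardiac ankyrin repeat gene, was among the 4 YAP and TEAD targets. *ANKRD1* had 63.0, 175 and 111 CPM in Mock, 33.4, 126 and 36.2 in upCIN85, 76.7, 207 and 103 in siNeg and 154, 176 and 94.3 in siCIN85.

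**Figure D4:**
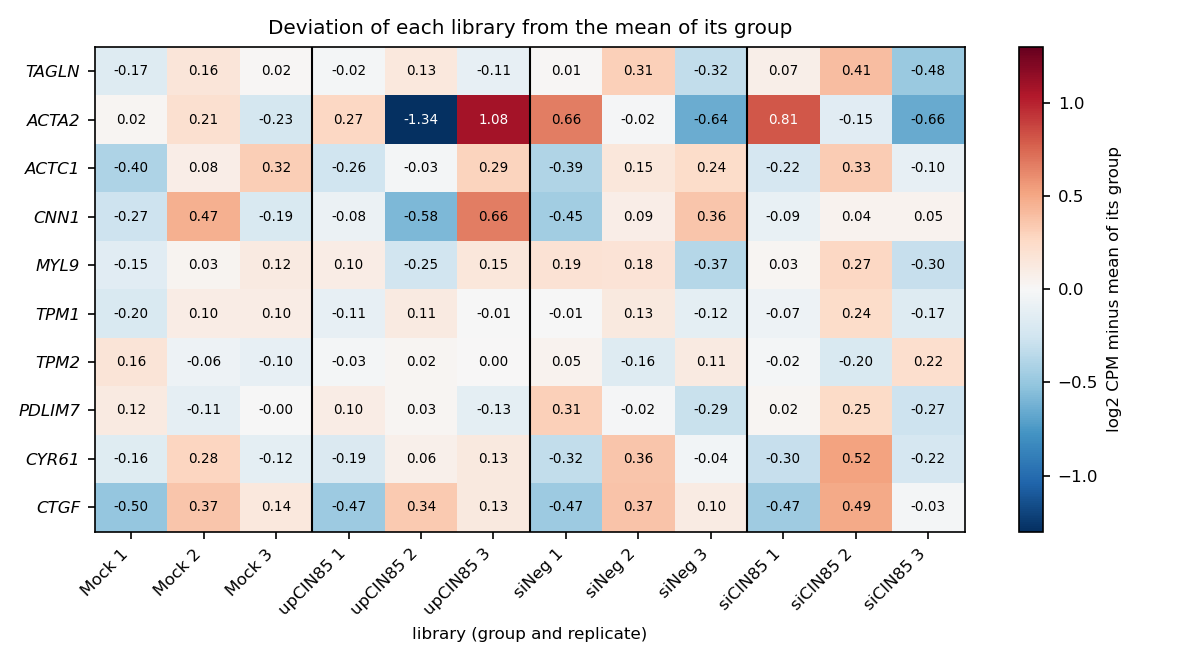
Deviation of log2 CPM from the mean of its group, for the 10 genes (rows) in the 12 libraries (columns), with red above and blue below the group mean. The *CTGF* row repeats 1 pattern in the 4 groups (replicate 1 between −0.50 and −0.47), the *TPM2* row is mostly opposite in colour to *TAGLN* except in upCIN85 replicates 1 and 2 and siNeg replicate 1, and *ACTA2* has the widest range, −1.34 to 1.08 in upCIN85.

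*CYR61* and *CTGF* varied together over the 12 libraries (Pearson's r = 0.85, Spearman's rho = 0.85, and r = 0.82 without the 2 libraries farthest from the median of *CYR61*). *TAGLN* varied with *TPM1* (r = 0.86, rho = 0.90, and 0.78 without 2 libraries), and *ACTC1* with *CTGF* (r = 0.84, rho = 0.80, and 0.73 without 2 libraries). *TPM2* was negatively correlated with *TAGLN* (r = −0.90, rho = −0.84, and −0.80 without 2 libraries) and to *TPM1* (r = −0.86, rho = −0.80, and −0.77). The 2 tropomyosin genes, whose proteins lie along the same filaments, thus had a negative correlation within groups while both had negative log2FC in the knockdown. In upCIN85, however, *TPM1* and *TPM2* deviated in the same direction in replicate 1 (−0.11 and −0.025) and in replicate 2 (0.11 and 0.023).

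*ACTA2* and *CNN1*, both smooth muscle genes, had r = 0.35 over the 12 libraries and r = −0.44 without upCIN85 replicates 2 and 3, so their relation rests on those libraries. Over all 45 pairs of the 10 genes the median r was 0.16, with 6 pairs (13.3%) at 0.7 or above and 3 pairs (6.67%) at −0.7 or below. Among all pairs of 8954 genes with a mean of at least 10 CPM the median was 0.00, with 3.23% at 0.7 or above and 3.08% at −0.7 or below.

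Other genes of the same pathways were taken from 7 lists. Over all 12542 tested genes, 6134 had a negative log2FC in upCIN85 and 6374 in siCIN85. By edgeR, 0.439% of all were called higher and 0.789% lower in upCIN85, and 0.59% higher and 0.454% lower in siCIN85. With the knockdown block these shares were 1.79% and 2.56% in upCIN85 and 1.53% and 1.89% in siCIN85. Of 9 SRF and MRTF regulators tested, none passed in upCIN85, where *FHL1* was the lowest (log2FC −0.48, adjusted P = 0.109) and *MRTFA* the highest (0.45, adjusted P = 0.424). With the knockdown block *FHL1*, a LIM domain gene, passed as lower (adjusted P = 0.0337 by edgeR). In siCIN85, 1 rose: *ELK3*, a ternary complex factor that binds with SRF, from 73.5, 61.8 and 77.6 CPM in siNeg to 115, 91.4 and 124 in siCIN85 (log2FC 0.64, SE 0.13, adjusted P = 0.0264 by edgeR).

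Of 30 other actin and contractile apparatus genes, none passed in upCIN85, where 20 had a negative log2FC (median −0.09), as had 6134 of all 12542 tested genes. With the knockdown block 2 passed there as lower, the focal adhesion gene *VCL* (log2FC −0.36, adjusted P = 0.0249 by edgeR) and the LIM domain gene *CSRP1* (−0.47, adjusted P = 0.0322). In siCIN85, 24 had a negative log2FC (median −0.18), as had 6374 of all 12542 tested genes. At an unadjusted P below 0.05 by edgeR, 9 of the 30 were lower there and 2 higher. *SMTN* had the highest log2FC of the list in siCIN85, 0.89, and did not pass (adjusted P = 0.1497 by edgeR, and 0.0869 with the block). Of the 30, 1 fell there: *MYL6*, the essential light chain of non‐muscle myosin, from 874, 1008 and 833 CPM in siNeg to 578, 741 and 584 in siCIN85 (log2FC −0.51, SE 0.11, adjusted P = 0.0393 by edgeR). With the block in the knockdown 4 fell, which were *MYL6*, *ACTB*, *ACTG1* and *TPM4*, against 1.89% of all genes. *MYL6* pairs with the regulatory light chains in the same myosin as *MYL9*, whose log2FC was −0.59.

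Of 15 RhoA, ROCK and LIM kinase genes none passed in either comparison by edgeR without a block. The lowest were *RHOC* in upCIN85 (log2FC −0.45, adjusted P = 0.0783, and 0.0441 with the knockdown block) and *RHOB* in siCIN85 (−0.52, adjusted P = 0.0997), and *LIMK1*, which inactivates the actin‐severing protein cofilin, had a log2FC of 0.79 in siCIN85 (adjusted P = 0.0876, and 0.0353 with the block). Of 19 YAP, TAZ and Hippo pathway genes none passed in either comparison. *AMOT*, a YAP‐binding junction protein, was the highest of them in upCIN85 (log2FC 0.40, adjusted P = 0.396) and the lowest in siCIN85 (−0.62, adjusted P = 0.234).

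Of 21 other YAP and TEAD target genes, 16 had a negative log2FC in upCIN85 (median −0.26), as had 6134 of all 12542 tested genes. Of the 21, 1 fell there: *TGFBI*, a matrix protein gene induced by TGF‐β, from 127, 123 and 95.6 CPM in Mock to 61.0, 78.3 and 76.7 in upCIN85 (log2FC −0.68, SE 0.16, adjusted P = 0.0459 by edgeR). With the knockdown block 5 fell in upCIN85 (*TGFBI*, *CRIM1*, *NT5E*, *RBMS3* and *NUAK2*, with adjusted P of 0.00317 to 0.0436 by edgeR) and *NDRG1* rose (log2FC 0.76, adjusted P = 0.0165). *ANKRD1* had the lowest log2FC of the list in upCIN85 (−0.84, SE 0.45, adjusted P = 0.416). In siCIN85, 11 of the 21 had a negative log2FC and 1 rose: *F3*, the tissue factor gene, from 48.7, 40.3 and 54.7 CPM in siNeg to 88.3, 73.7 and 74.7 in siCIN85 (log2FC 0.72, SE 0.16, adjusted P = 0.0413 by edgeR).

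Of 12 TGF‐β ligands, receptors and SMADs tested, 1 fell in upCIN85: *SMAD4*, the common partner of the receptor‐regulated SMADs, from 53.1, 56.4 and 71.4 CPM in Mock to 25.7, 23.4 and 12.9 in upCIN85 (log2FC −1.54, SE 0.30, adjusted P = 0.0187 by edgeR). With the knockdown block *SMAD6*, an inhibitory SMAD, also fell in upCIN85 (log2FC −1.06, adjusted P = 0.00630 by edgeR). None passed in siCIN85, where *SMAD6* was the lowest (log2FC −0.79, adjusted P = 0.311). Of the CCN family besides *CYR61* and *CTGF*, only *CCN3* could be tested, with a log2FC of 0.61 in upCIN85 (adjusted P = 0.428) and 0.38 in siCIN85 (adjusted P = 0.664).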

How the data were processed

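Total RNA of 12 HOS libraries was prepared with the Lexogen QuantSeq 3′ FWD kit with unique molecular identifiers and read from 1 end on a NextSeq 500. The authors deposited raw counts per gene, which were not normalized, and the submitters' processing notes name cutadapt 4.3, STAR 2.7.3a, Picard 2.25.6, featureCounts of Subread 2.0 and GRCh38. The annotation release, the strand setting and any collapsing of identifiers are not given in the sources used here, and uncollapsed PCR copies would make counts look more precise than they are. Of 25141 identifiers, 95 had no match in GENCODE release 29.

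Counts were tested in R 4.3.3 with edgeR 4.0.16: filterByExpr (minimum count 10, minimum total 15), TMM factors and a quasi‐likelihood fit of the 4 groups to the 12 libraries (8 residual degrees of freedom). Two‐sided P‐values were adjusted by the Benjamini and Hochberg method over 12542 genes, with a threshold of 0.05. The SE was taken as the size of the log2FC over the square root of F. An exact permutation test of 3 against 3 libraries cannot give a P below 0.1 and was not used. Deviations and same‐number ratios used log2 CPM with a prior count of 2. In siNeg and siCIN85, equal replicate numbers correlated across genes (r = 0.353, 0.269 and 0.446). They were therefore taken to pair these libraries, which no label states, in a further fit with this block in the knockdown. The fit used for calls had no block, and the further fit is given where it changes a call. This fit was chosen after seeing the data, and since the 4 groups share 1 estimate of the spread, it also changed calls in upCIN85. The other alternatives were RLE normalization, no filter, at least 10 counts in every library, the 6 libraries of a comparison, a block in both experiments, DESeq2 1.42.0, and each library left out. The fit was tested on simulated counts.

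The 10 genes and the lists were chosen with earlier results of these data known. Named besides the 10 genes and *SH3KBP1* are list genes past the threshold, the highest and lowest log2FC of a list, and the genes that vary most like the 10 (1 of which is not reported here); genes that passed only with the block were chosen after their values were seen. Of the 50‐base stretches in the last 500 bases of coding transcripts, none of 9 of the genes and 0.272% of *TPM1* occur in transcripts of another gene.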

Additional observations from a re-analysis of the deposited data

Results flagged for a closer look

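The change of *CNN1* differed between the experiments: its log2FC was 1.53 in upCIN85 versus Mock and −0.34 in siCIN85 versus siNeg, a difference of 1.86 on the log2 scale (SE 0.39, adjusted P = 0.0321 by edgeR's interaction contrast). Since the experiments aim at opposite changes of CIN85, this difference does not measure whether they disagree. The same‐number ratios were positive in 3 of 3 pairs of upCIN85 and Mock and negative in 2 of 3 pairs of siCIN85 and siNeg. Over the alternatives the adjusted P ranged from 6.75e-15 (no filter on low counts) to 0.0907 (without siCIN85 replicate 1), and it passed in 11 of 18.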

How the results depend on the processing

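Of 756 values of single genes under the alternatives, 674 kept direction and side of the threshold, 49 moved past it, 9 moved short of it and 24 changed sign, all 24 to a size of at most 0.21. The count of the 10 genes called in upCIN85 versus Mock, 1 by the fit used here, was 4 with 6 libraries, 4 by DESeq2 on 12 or 6 libraries, 7 without a filter, 6 with a block in both experiments, 4 with the block in the knockdown, and 0 to 3 without 1 library. In siCIN85 versus siNeg, 0 became 1 by DESeq2 on 12 or 6 libraries, 4 without a filter, 3 with a block in both, 2 with the block in the knockdown, and 0 to 3 (1 to 3 where it moved) without 1 library. For the difference, 1 became 2 without a filter, 5 with a block in both, 2 with the block in the knockdown, and 0 to 2 without 1 library.

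Over all genes, 154 calls in upCIN85 versus Mock became 281 with 6 libraries, 637 without a filter, 1035 and 545 with the 2 blocks, 311 and 369 by DESeq2 on 12 and 6 libraries, and 25 to 260 without 1 library. The 131 calls in siCIN85 versus siNeg became 50, 617, 968 and 429, 298 and 204, and 9 to 362 in the same order. The 66 calls in siNeg versus Mock became 376 without a filter, 183 and 182 by DESeq2, and 7 to 134 without 1 library. The 122 calls for the difference became 554 without a filter, 918 and 368 with the blocks, 269 by DESeq2, and 33 to 341 without 1 library. The cause of these shifts was not tested.

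Without 1 library, log2FC values that changed sign ranged in siCIN85 versus siNeg from −0.021 to 0.28 for *PDLIM7* and −0.45 to 0.048 for *CTGF*, and for the difference from −0.17 to 0.35 for *CYR61*. In siNeg versus Mock they ranged from −0.12 to 0.19 for *TAGLN*, −0.25 to 0.21 for *CNN1*, −0.062 to 0.20 for *MYL9* (−0.00081 without a filter), −0.14 to 0.014 for *TPM1*, −0.0030 to 0.14 for *TPM2* and −0.22 to 0.13 for *CYR61*. Equal numbers of Mock and upCIN85 correlated with r = 0.326, 0.227 and 0.0989, and each of the 6 libraries correlated best with its own number, as in the knockdown. The r of replicate 3 fell just under a limit of 0.1, so the knockdown block left these libraries unblocked. Whether the numbers pair Mock and upCIN85 libraries is not given by the labels. A block in both experiments moved *TAGLN*, *PDLIM7*, *ACTC1*, *CTGF* and *CYR61* past the threshold beside *CNN1*. The block was not run for siNeg versus Mock, whose libraries no number pairs. Depth limits *ACTA2* most, with 8 to 27 counts in siCIN85, and *ACTC1*, with 23 to 37 counts in 5 of 6 siRNA libraries.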

Other observations

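Among 8944 other genes with a mean of at least 10 CPM, those whose deviations from group means were most like the mean deviation of *CYR61* and *CTGF* over the 12 libraries were *COPS7B* (r = 0.98), *GARRE1* (0.96), *EDN1* (0.95), *PPIL2* (0.94) and *NDRG3* (0.94). *EDN1* encodes endothelin 1, a secreted peptide that makes smooth muscle contract. Its CPM was 30.5, 64.2 and 42.8 in Mock, 24.0, 33.3 and 41.3 in upCIN85, 30.2, 64.3 and 50.8 in siNeg and 33.2, 59.6 and 34.1 in siCIN85, with replicate 1 the lowest in each group. Those most like the mean deviation of the other 8 genes included *LINC01508* (r = 0.96), *PGAP4* (0.95), *SLC25A4* (0.94) and *MTX2* (0.93). The 8 genes did not vary as 1 group, since their own r with that mean ran from −0.66 for *TPM2* to 0.85 for *MYL9*. The highest of this many correlations over 12 libraries are high in part because they were picked, and they are given as a description.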
